A study of Caenorhabditis elegans with 104 samples.

Results

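The worms described here are the 50 older Caenorhabditis elegans worms with the highest or lowest level of the small heat shock protein genes hsp-16.2 (Y46H3A.3) and hsp-16.41 (Y46H3A.2) for their age, out of 74 older worms; the series holds 30 younger worms besides. The worms were selected on their own hsp-16 values. Each of the 74 worms, aged 12, 14, 16, 20 or 24 days, received a score, the mean of its hsp-16.2 and hsp-16.41 log2 ratios after the mean of its age was subtracted from each. The 25 worms with the highest scores are called high worms, the 25 with the lowest are called low worms, and 24 worms lay between them. All worms were unmodified N2, the wild-type laboratory strain, descended from a timed egg lay of 2 hours and kept at 20 °C on plates with OP50 bacteria, and the labels record no treatment or heat shock. Every array compared the amplified RNA of 1 whole worm, labelled with Cy5, with the amplified RNA of a pool of 15 N2 worms aged 4 days, labelled with Cy3. Before freezing, each worm was filmed alone on a plate without bacteria.

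The high worms comprised 8 worms of day 12, 6 of day 14, 4 of day 16, 5 of day 20 and 2 of day 24. The low worms comprised 8 worms of day 12, 4 of day 14, 5 of day 16, 5 of day 20 and 3 of day 24. The labels record neither a lifespan for any single worm nor a batch of hybridization. They do not say that any age was harvested on more than 1 occasion, so age and harvest cannot be told apart. The comparisons below therefore keep age in the model and contrast worms of like age.

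Small heat shock proteins of the hsp-16 family bind unfolding proteins and hold them in a state from which other chaperones can refold them. Their genes are nearly silent in unstressed worms and are switched on by the heat shock factor HSF-1, together with the inducible hsp-70 gene, when proteins misfold. Genetically identical worms differ in how strongly they express hsp-16.2, and in young adults the level of an hsp-16.2 reporter after a heat pulse is known to predict how long a worm goes on living. hsp-16.2 and hsp-16.41 are divergently transcribed neighbours that share a promoter region, which is background to how closely they go together.

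Since hsp-16.2 and hsp-16.41 chose the worms, their values are given as a description without a test. In the high worms hsp-16.2 ranged from a log2 ratio of 3.14 to 7.99 with a median of 4.72. In the low worms hsp-16.2 ranged from -2.93 to 5.23 with a median of 2.52. For hsp-16.41 the range was 2.96 to 8.14 in the high worms, with a median of 5.15, and -1.04 to 5.50 in the low worms, with a median of 1.93. The ranges of the groups overlap because the score was taken within each age and the ages differ in level. The mean log2 ratio of hsp-16.2 was 2.68 ± 2.21 (SD, n = 17) at day 12, 2.96 ± 1.44 (n = 17) at day 14 and 5.57 ± 1.16 (n = 17) at day 16. It was 3.90 ± 1.51 (SD, n = 14) at day 20 and 4.53 ± 0.79 (n = 9) at day 24. In the younger worms the mean was 6.74 at day 4 (n = 13) and 7.37 at day 8 (n = 17). Both lie above the median of the high worms, so high and low describe a worm only against others of its age. The day 4 worms read this far above a pool of worms of the same age, and the cause was not tested.

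Scores ran from 0.583 to 2.79 in the high worms and from -3.32 to -0.310 in the low worms. Just outside the groups, the next worms had scores of 0.566 and -0.295, so neither edge falls at a gap. The spread of the score was widest at day 12, with an SD of 1.85, and was 1.31 at day 14, 0.94 at day 16, 1.38 at day 20 and 0.94 at day 24. Day 12 accordingly gave 16 of the 50 worms and left 1 worm of that age between the groups. Across the 74 worms, with age means removed, the log2 ratios of hsp-16.2 and hsp-16.41 correlated at r = 0.691, a description of genes that share an array and a locus.

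**Figure D1:**
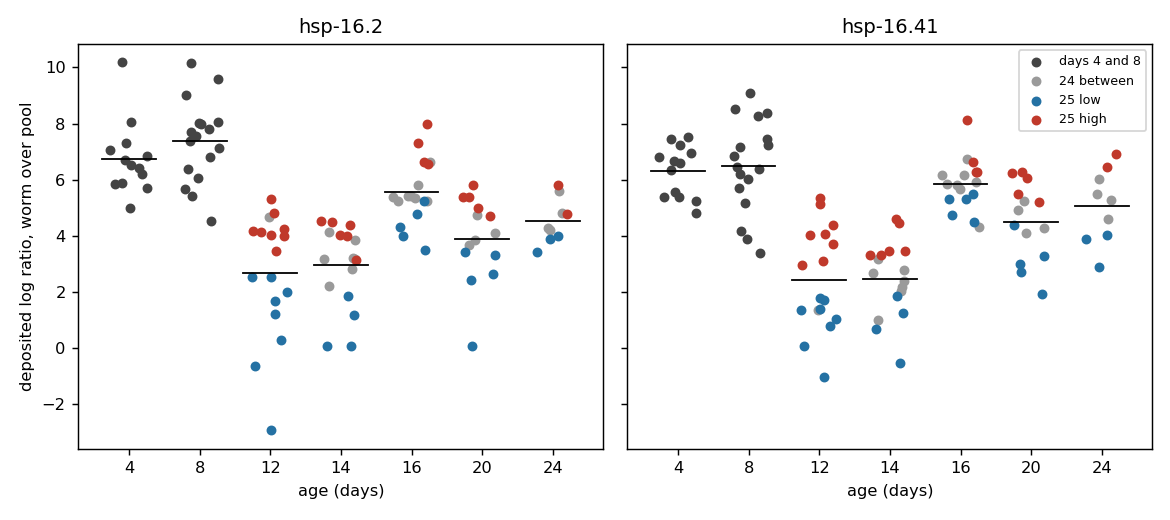
Log2 ratio of hsp-16.2 (left) and hsp-16.41 (right) in each of the 74 older and 30 younger worms, worm over pool, against age in days. Points are single worms, placed side by side at random within an age, and black lines are age means. The high and low worms are taken within each age, so a high worm of day 12 or 14 can lie below a low worm of day 16.

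The arrays themselves differed between the groups in 1 respect that touches every result below. Probes without a value numbered 9 to 205 per array in the high worms, with a median of 90, and 44 to 464 in the low worms, with a median of 153, out of 22490 probes. Within ages the high worms minus the low worms came to -59.8 such probes (permutation test within age, 100000 resamples, two-sided p = 0.0012, Benjamini-Hochberg adjusted over 3 array measures 0.0036, n = 25 and 25). The spread of the log2 ratios of an array did not pass that test (adjusted p = 0.0884), nor did the number in the title of the sample, whose meaning the labels do not give (within-age difference -24.8, adjusted p = 0.0588). A fit with the number of missing probes as a further term is given beside the main result.

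Among 18887 genes other than hsp-16.2 and hsp-16.41, hsp-70 (C12C8.1), the heat-inducible cytosolic HSP70 chaperone gene, was the only gene that passed the test between high and low worms. That is 0.00529% of the genes tested, and no gene was lower past the threshold. In the high worms the log2 ratio of hsp-70 ranged from 1.11 to 5.41 with a median of 2.60. In the low worms it ranged from -1.18 to 4.27 with a median of 1.5. The ranges overlapped across ages, and the high worms lay on average 1.5 ± 0.26 (SE) above low worms of like age, which is 2.82-fold (limma with age as a factor, Benjamini-Hochberg adjusted over all genes p = 0.0142, n = 25 and 25). Without adjustment, 881 genes were higher and 726 lower at p under 0.05.

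The difference in hsp-70 had the same sign at 5 of 5 ages. At day 12 the high worms ranged from 2.0 to 3.39 with a median of 2.39 and the low worms from -1.18 to 1.65 with a median of 0.81, so the groups did not overlap. At day 14 the high worms ranged from 1.11 to 2.97 with a median of 1.55, and the 4 low worms read 0.15, 0.22, 1.28 and 2.0, within reach of the high worms. At day 16 the 4 high worms read 3.27, 4.60, 4.94 and 5.41 and the 5 low worms 1.95, 2.37, 2.72, 3.85 and 4.03, with only the lowest high worm inside the low range. The day 20 worms overlapped more, with 2.27, 2.60, 4.41, 4.56 and 4.82 in the high worms and 0.81, 1.65, 2.56, 3.23 and 4.27 in the low worms. On day 24 the 2 high worms read 2.17 and 4.57 and the 3 low worms 0.11, 1.17 and 2.43.

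With array weights 6 genes were higher (0.0318%), among them hsp-70, nhr-63 and numr-1. hsp-70 stayed higher in the high worms in all 19 alternative settings and passed the threshold in 13 of them, with adjusted p (limma) between 0.00554 and 0.350. The call depends on day 12: without that age the difference was 1.34 ± 0.34 with an adjusted p of 0.350. With the number of missing probes as a term the difference was 1.25 ± 0.28 with an adjusted p of 0.205, and without the worms that had more missing probes than any high worm (25 high and 23 low worms left) it was 1.49 ± 0.27 with an adjusted p of 0.0231 (limma).

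**Figure D2:**
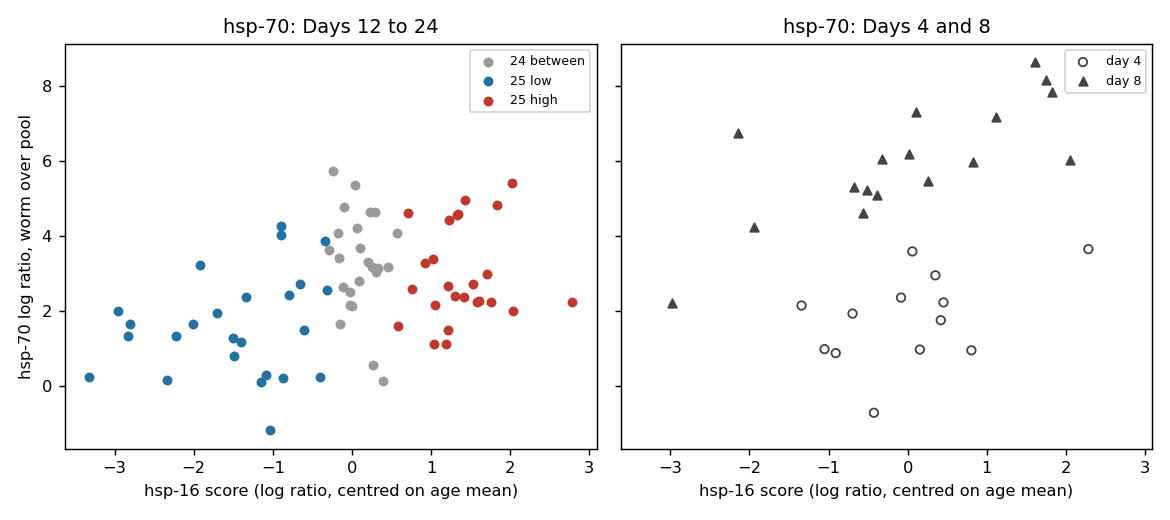
Log2 ratio of hsp-70 (worm over pool) against the hsp-16 score, the mean log2 ratio of hsp-16.2 and hsp-16.41 with the age mean subtracted. Each point is 1 worm; the left panel shows the 74 older worms and the right panel the 30 worms of days 4 and 8, which took no part in choosing the groups. The high worms lie at or above 1.11 and the low worms reach down to -1.18.

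Worms that took no part in forming the groups offered a separate look at hsp-70. Scored in the same way, the 13 worms of day 4 and 17 of day 8 showed a slope of 0.77 ± 0.16 log2 units of hsp-70 per unit of score (limma with age as a factor, adjusted over all genes p = 0.0411, n = 30). In all 19 genes passed in these younger worms, each of them rising with the score, which is 0.101% of 18887 genes. hsp-17 (F52E1.7), another small heat shock protein gene, had the lowest p, with a slope of 0.54 ± 0.10 (adjusted p = 0.0316). The call depends on day 8: day 8 alone gave 7 genes, day 4 alone 0, and quantile normalization 0 (limma throughout), while 2227 genes had an unadjusted p under 0.05.

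Within single ages, hsp-70 followed the score most closely at day 8 (Pearson r = 0.754, Spearman rho = 0.694, n = 17, permutation p adjusted over 14 relations 0.00294 for r). The older ages hold the worms in which hsp-70 had been called, so their p values below are a description and not separate evidence. At day 12 r was 0.616 and rho 0.603 (n = 17, adjusted permutation p = 0.0290 for r and 0.0416 for rho), and r stayed at 0.589 without the 2 worms farthest from the median score. For day 16, r was 0.621 and rho 0.571 (n = 17, adjusted permutation p = 0.0290 for r and 0.0513 for rho), falling to r = 0.409 without the 2 farthest worms, so that relation rests partly on them. Day 14 showed no relation past the threshold (r = 0.219, rho = 0.115, n = 17, adjusted permutation p = 0.398). For day 4 r was 0.452 and rho 0.324 (n = 13, adjusted permutation p = 0.156), and for day 20 r was 0.524 and rho 0.512 (n = 14, adjusted permutation p = 0.0956). The 9 worms of day 24 gave r = 0.725 and rho = 0.567 (adjusted exact permutation p = 0.0720), and r fell to 0.323 without the 2 farthest worms.

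hsp-17 took the same direction at every older age without passing the test over the 50 worms. Its log2 ratio ranged from -1.29 to 3.55 in the high worms, with a median of 0.65, and from -2.41 to 2.84 in the low worms, with a median of -0.62. The difference was 1.17 ± 0.29 (limma, adjusted p = 0.126). At day 8, in worms outside the groups, hsp-17 followed the score at r = 0.850 and rho = 0.819 (n = 17, adjusted permutation p = 0.00028 for r). At day 4, the other younger age, r was 0.417 and rho 0.599 (n = 13, adjusted permutation p = 0.180 for r and 0.0811 for rho). hsp-17 had the lowest p of all genes in the fit of these younger worms. Its p values at days 4 and 8 are therefore a description and not separate evidence. At none of the 5 older ages did r for hsp-17 pass, with r between 0.275 at day 12 and 0.716 at day 24 and adjusted permutation p of 0.0720 or higher, and rho passed at day 14 (rho = 0.603, adjusted permutation p = 0.0416).

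The rest of the cytosolic heat shock machinery showed no such difference past the threshold. Of 10 small heat shock protein genes other than those of the score, hsp-17 among them, none passed, 6 were positive and their median difference was 0.17. Over all genes 49.4% were positive and the median was -0.0037. hsp-12.3 differed by 0.70 ± 0.26 (limma, adjusted p = 0.401) and hsp-16.20 by -0.36 (adjusted p = 0.601). hsf-1 (Y53C10A.12), which encodes the heat shock factor itself, differed by -0.04 ± 0.15 (limma, adjusted p = 0.969). The genes of its negative regulators gave 0.09 for hsb-1, -0.13 for ddl-1 and -0.11 for ddl-2, with adjusted p of 0.813 or higher (limma). The genes hsp-16.1, hsp-16.11, hsp-16.48 and hsp-16.49 were not analysed here.

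No constitutive chaperone gene passed. None of 30 cytosolic HSP70, HSP90 and co-chaperone genes passed, with a median difference of 0.06, and 6 were higher and 1 lower at an unadjusted p under 0.05. The share is to be read against 4.66% of all genes higher and 3.84% lower at that p. hsp-110, a nucleotide exchange factor for HSP70, differed by 0.39 ± 0.16 (limma, adjusted p = 0.484), and daf-41, a p23 co-chaperone of HSP90, by 0.36 (adjusted p = 0.264). hsp-6, the mitochondrial HSP70, differed by 0.65 ± 0.23 (limma, adjusted p = 0.349), and ubl-5, a ubiquitin-like protein of the mitochondrial unfolded protein response, by 0.66 (adjusted p = 0.204). Their list of 13 mitochondrial genes had 7 positive and a median of 0.03, near the 49.4% positive of all genes, and none passed. None of 21 genes for chaperones of the endoplasmic reticulum and its unfolded protein response passed either, and xbp-1, whose spliced form drives that response, differed by 0.49 (limma, adjusted p = 0.406).

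No gene of protein degradation passed. Of 33 proteasome genes 22 were positive with a median of 0.06, 3 were higher at an unadjusted p under 0.05 and none lower. Of 52 genes for ubiquitin handling, autophagy and the lysosome 36 were positive with a median of 0.04. Over all genes 49.4% were positive, and 4.66% were higher and 3.84% lower at an unadjusted p under 0.05 (limma). Among them sqst-1, an autophagy receptor, differed by 0.69 (limma, adjusted p = 0.399).

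The genes that lie beside the hsp-16.2 and hsp-16.41 pair on chromosome V, by the order in RefSeq's WBcel235 gene list, did not pass. srt-41 differed by 0.48 ± 0.23 (limma, adjusted p = 0.559) and srt-42 by 0.12 (adjusted p = 0.945), both encoding chemoreceptors of the srt class. Farther out, F36H9.1 gave -0.33, Y46H3A.4 -0.42 and Y46H3A.5 -0.32, with adjusted p of 0.675 or higher (limma).

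After hsp-70, the 11 named genes with the lowest p among those higher in the high worms had adjusted p between 0.0691 and 0.126 (limma) and did not pass. nhr-63, a nuclear hormone receptor gene, came closest, with 0.08 to 3.87 and a median of 2.29 in the high worms, -0.87 to 2.77 and a median of 0.77 in the low worms, and a difference of 1.25 ± 0.25 (adjusted p = 0.0691). numr-1, which encodes a nuclear protein induced by metals, ranged from -0.15 to 8.74 in the high worms and from -1.2 to 6.12 in the low worms, with a difference of 2.03 ± 0.45 (limma, adjusted p = 0.118). The widest gap was in tsp-1, a tetraspanin gene, at 2.20 ± 0.54 (limma, adjusted p = 0.126), where 1 low worm read -7.25.

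The other named genes on this side were nnt-1, the mitochondrial nicotinamide nucleotide transhydrogenase (1.37), ttr-51, a transthyretin-related gene (1.28), frm-10, a FERM domain gene (0.91), nlp-20, a neuropeptide-like gene (0.87), svh-2, a receptor tyrosine kinase of axon regeneration (0.63), allo-1, an autophagy adaptor for paternal organelles (0.59), mstr-1 (0.59) and mlc-5, a non-muscle myosin light chain (0.36). At day 16 high minus low was below 0 for frm-10 (-0.44), allo-1 (-0.34), svh-2 (-0.15) and mstr-1 (-0.08), and above 0 for the others just named. The 12 named genes of lowest p on the lower side had adjusted p from 0.118 to 0.194 (limma), and none passed. They were fbxb-116 (-1.53) and fbxb-6 (-0.75), both F-box genes, sre-1, a chemoreceptor gene (-1.09), cgt-2, a ceramide glucosyltransferase (-0.98), col-179, a cuticle collagen (-0.90), trpp-10, a subunit of the TRAPP trafficking complex (-0.86), clec-10, a C-type lectin (-0.77), gda-1 (-0.71), ddo-2 (-0.55), sor-3 (-0.53), add-1, the adducin of the membrane skeleton (-0.42), and lin-5, a spindle positioning protein (-0.32). Of these, cgt-2 stood at 0.24 at day 16 and the others below 0. For col-179 high minus low was -2.27 at day 16 and -0.60 at the other older ages.

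**Figure D3:**
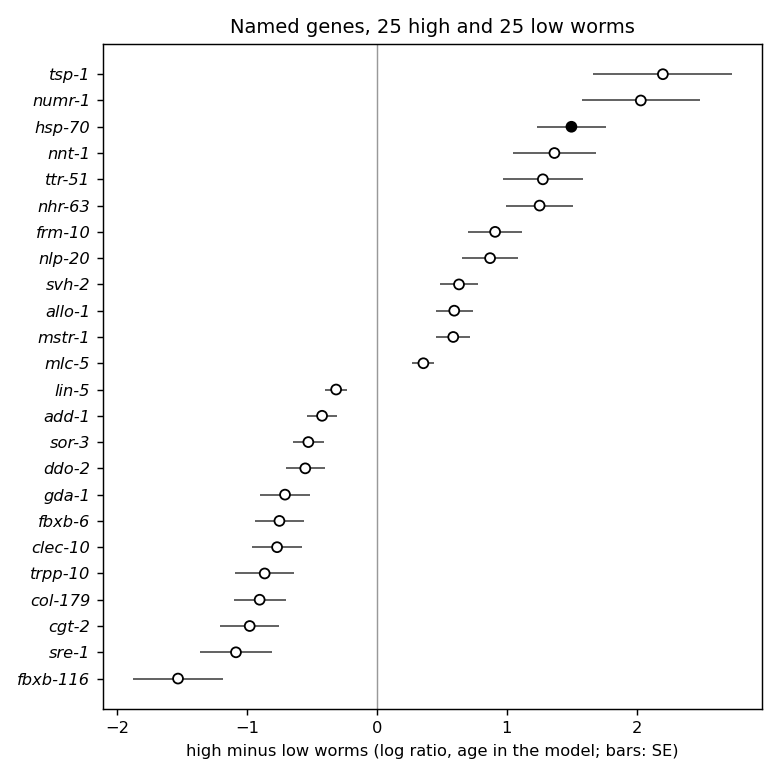
Difference in log2 ratio between the 25 high and 25 low worms, with age in the model, for the 12 named genes of lowest p in each direction. Points are estimates and bars their standard errors; the filled point is hsp-70, the only gene past the threshold, and open points did not pass.

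Used as a continuous measure over all 74 older worms, the score carried more genes past the threshold. Slopes passed for 80 genes, of which 70 (0.371% of 18887) rose and 10 (0.0529%) fell with the score (limma with age as a factor, adjusted p under 0.05). hsp-70 was among those that rose, by 0.45 ± 0.09 log2 units per unit of score (adjusted p = 0.00699). These worms include the 50 already compared, so the slopes are another reading of the same data and not separate evidence.

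No gene list had more than 2 members among the 70. None of the measured cytochrome P450 and UDP-glucuronosyltransferase genes, 48 glutathione S-transferase genes, 26 pals genes and 229 C-type lectin genes rose past the threshold. Over all 18887 genes 0.371% rose, so the absence of a rise in lists of this size is near that share. numr-1 rose by 0.68 ± 0.14 per unit of score (adjusted p = 0.00699, limma) and cdr-4, a cadmium-responsive gene, by 0.42 ± 0.09 (adjusted p = 0.00699), which were 2 of the 16 measured genes of metal response. irg-1 and irg-2, infection response genes, rose by 0.50 ± 0.11 (adjusted p = 0.0185) and 0.64 ± 0.13 (adjusted p = 0.00659, limma), which were 2 of 89 innate immunity genes. mrp-2, an ABC transporter of the multidrug resistance family, rose by 0.43 (adjusted p = 0.00772), and aip-1, an arsenite-inducible zinc finger gene, by 0.18 (adjusted p = 0.0498, limma). cki-1, an inhibitor of cyclin-dependent kinases, rose by 0.44 (adjusted p = 0.0248, limma). These rises did not hold at every age. At day 16 high minus low was below 0 for numr-1, cdr-4, irg-1, irg-2, mrp-2, aip-1 and cki-1, and for cki-1 it was also -0.25 at day 24. Among the 10 genes that fell were sor-3 (-0.17), fbxb-116 (-0.51), cgt-2 (-0.29), sre-1 (-0.33) and rnf-121 (-0.14), each with an adjusted p of 0.0391 or lower (limma).

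By correlation with the score over the 74 worms, age means removed, the genes most like it were frm-10 (r = 0.615), nhr-63 (0.591), the annexin gene nex-2 (0.569), the claudin-like gene clc-19 (0.552), ZK822.1, allo-1 (0.531), mstr-1 (0.530), T23B3.2, irg-2 (0.519) and F13A7.11. The most opposite were sor-3 (r = -0.528), fbxb-116 (-0.500), K12H6.2, T05E12.3 and C15B12.1. All of these values share arrays with the score, and hsp-70 stood at r = 0.506.

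In the younger worms, which took no part in that fit, 53 of the 70 genes that rose had a positive slope (75.7%), against 51% of all genes. Missing probes were a term in neither the older nor the younger slopes, and their part in this count was not tested. 2 of the 70, hsp-70 and Y58A7A.3, passed there, where 0.101% of all genes passed. Of the 10 that fell, 6 had a negative slope, which is near the share in all genes, of which 51% had a positive one. The agreement was not general: frm-10 gave 0.08 (limma, adjusted p = 0.834), nhr-63 -0.15 (adjusted p = 0.740) and numr-1 0.18 (adjusted p = 0.649) at days 4 and 8.

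The difference between high and low worms was then compared between ages. It was not called different for any gene between mid life (days 12, 14 and 16) and late life (days 20 and 24), with 0 of 18887 passing (limma interaction) and 1133 at an unadjusted p under 0.05. Day 16 nevertheless stood apart once the ages were looked at singly. Of the 70 genes that rose with the score, 70 had a higher mean in the high worms at day 12, 70 at day 14, 70 at day 20 and 66 at day 24, but 17 at day 16. The choice of the 70 used these same worms and so fixes much of the count at each age. All genes together were evenly split at day 16, with 49% positive.

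A test of the difference itself, chosen after that count was seen, asked whether high minus low at day 16 (4 and 5 worms) differed from high minus low at days 12, 14, 20 and 24 (21 and 20 worms). It was called for 400 genes, or 2.12% of 18887, of which 153 were shifted upward and 247 downward at day 16 (limma interaction, adjusted p under 0.05). The same test set for each other age against the remaining ages called 0 genes for day 12 (1529 at an unadjusted p under 0.05), 1 for day 14 (ugt-7), 0 for day 20 (825 unadjusted) and 2 for day 24 (C16D9.8 and Y57G7A.6, 0.0106%). Because only 9 worms carry the day 16 side, each of them weighs: leaving out 1 of the 9 in turn left between 66 and 633 genes. With the score as a continuous term over 74 worms, 14 genes were called, of which 13 were among the 400.

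Missing probes largely separated the day 16 groups too, with 9, 50 and 54 in 3 of the 4 high worms and 152, 159, 195 and 464 in 4 of the 5 low worms, and the highest of the high worms a little above the lowest of the low worms. With missing probes as a further term 498 genes were called, 331 of them among the 400, and with quantile normalization 471, of which 374 were shared (limma). Leaving day 16 out of the main comparison raised its calls from 1 to 150 higher (0.794%) and from 0 to 54 lower (0.286%), and 62 of these 204 genes were among the 80 of the continuous score.

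numr-1 is an example of the turn at day 16. At day 14 it ranged from 3.68 to 6.64 in the high worms, with a median of 4.06, and read 0.57, 1.82, 2.03 and 3.31 in the low worms. At day 16, 3 of the 4 high worms lay below every low worm, with -0.15, 1.11, 1.31 and 4.57 in the high worms and 2.37, 3.39, 4.00, 4.69 and 5.22 in the low worms. By day 20 the high worms again read higher, at 4.17, 5.82, 6.15, 6.82 and 7.20 against 2.58, 2.75, 2.92, 3.30 and 6.12. High minus low for numr-1 was -2.22 ± 0.83 at day 16 and 2.97 ± 0.39 at the other ages, a difference of -5.19 ± 0.92 (limma, adjusted p = 0.00256).

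cki-1, the cyclin-dependent kinase inhibitor gene, shifted by -2.92 ± 0.79 (limma, adjusted p = 0.0392), and mrp-2 by -3.13 ± 0.67 (adjusted p = 0.0106). For irg-1 the difference was -3.10 ± 0.89 and for cdr-4 -2.49 ± 0.72, both just short of the threshold (adjusted p = 0.0504 and 0.0512, limma). hsp-70 and hsp-17 kept their sign at day 16: hsp-70 was 1.57 ± 0.63 higher in the high worms at day 16 and 1.48 ± 0.29 at the other ages (difference 0.09 ± 0.69, adjusted p = 0.969), and hsp-17 was 1.72 ± 0.68 and 1.05 ± 0.32 higher (difference 0.68 ± 0.75, adjusted p = 0.704, limma). The standard error of the hsp-70 difference leaves room for an unequal change of either sign. The 10 small heat shock protein genes other than those of the score, hsp-17 among them, had a median difference of -0.14 at day 16, with 4 positive. At the other older ages their median was 0.21, with 8 positive. Of all 18887 genes 9250 and 9402 were positive. No small heat shock protein gene was called for the shift.

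**Figure D4:**
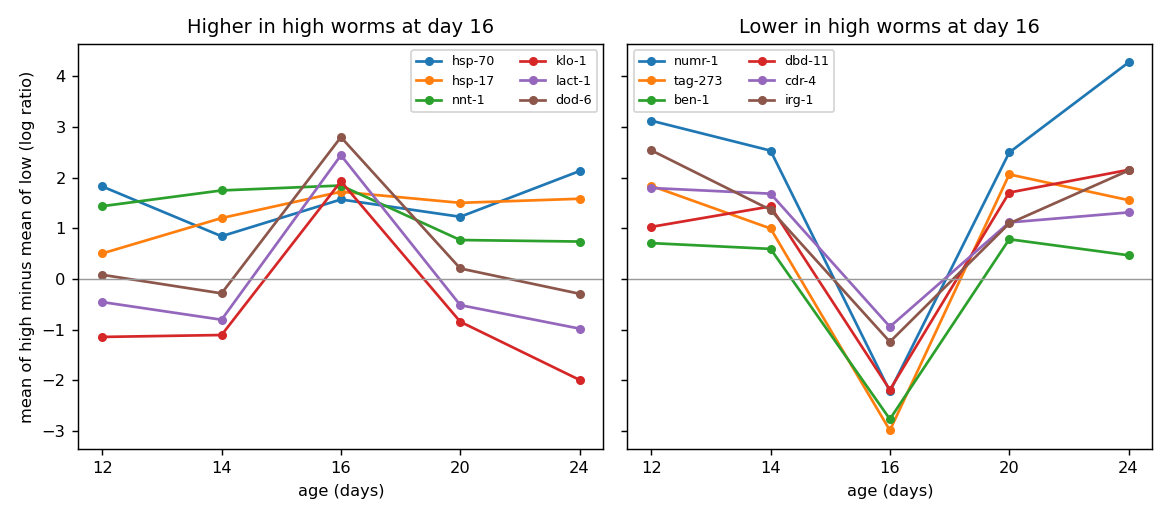
Mean of the high worms minus mean of the low worms in log2 ratio at each older age (8 and 8, 6 and 4, 4 and 5, 5 and 5, 2 and 3 worms). The left panel holds genes higher in the high worms at day 16 and the right panel genes lower there; hsp-70, hsp-17 and nnt-1 are above 0 at every age, while numr-1 falls from 2.53 at day 14 to -2.22 at day 16 and returns to 2.50 at day 20.

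Among genes with a gene name, those shifted upward at day 16 with the lowest p were klo-1, a klotho gene, and lact-1, a gene of the beta-lactamase-like family. The genes named from this test were picked on these same worms. A gap between their day 16 high and low values follows in part from that choice. klo-1 read 0.89, 1.21, 1.54 and 1.61 in the 4 high worms and -1.13, -0.77, -0.59, -0.30 and -0.28 in the 5 low worms. Its shift against the other ages was 3.09 ± 0.50 (limma, adjusted p = 0.00161). lact-1 read 1.0, 1.97, 2.44 and 2.92 against -1.42, -1.0, 0.07, 0.25 and 0.28, with a shift of 3.06 ± 0.51. lact-1 was also 1 of the 19 genes whose level rose with the score at days 4 and 8, with a slope of 0.79 ± 0.14 (adjusted p = 0.0316), whereas at days 12, 14, 20 and 24 high minus low was -0.46, -0.81, -0.52 and -0.98. Days 4, 8 and 16 were the ages with the highest mean hsp-16.2, at 6.74, 7.37 and 5.57. Any part of that level in the direction of lact-1 was not tested, and age and harvest cannot be told apart.

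The next by p were car-1, an RNA-binding protein of germline granules (2.17 ± 0.37), dod-6, named as a gene downstream of DAF-16 (2.82 ± 0.52), cyp-37A1, a cytochrome P450 (2.46 ± 0.47), and lem-3, a nuclease (1.27 ± 0.25). dod-6 read 1.49, 2.23, 3.76 and 5.02 in the high worms and no more than 0.85 in the low worms of day 16. On the downward side the named genes of lowest p were, beside numr-1, famh-161 (-2.89 ± 0.49), ben-1, a beta-tubulin and the target of benzimidazole drugs (-3.44 ± 0.61), ift-43, a subunit of the intraflagellar transport machinery (-3.18 ± 0.58), dbd-11 (-3.62 ± 0.66) and tag-273 (-4.65 ± 0.86). For ben-1 the high worms of day 16 read -1.93, -0.86, 0.51 and 1.47 and the low worms 1.83, 2.64, 2.64, 2.83 and 2.90.

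Of 35 oocyte and eggshell genes 6 were called with an upward shift at day 16 and none with a downward one, and of 36 genes of germline proliferation and meiosis 2 were called, both upward. Over all 18887 genes 0.81% were called upward and 1.31% downward. The median difference of the oocyte list was 0.78 at day 16, with 30 of 35 positive, and -0.27 at the other older ages, with 4 of 35 positive, where 9250 and 9402 of all 18887 genes were positive. Averaged over the oocyte list, the high worms of day 16 lay between -0.52 and -0.09 and the low worms between -1.56 and -0.68. At the other older ages, which pool 21 high and 20 low worms of differing ages, the high worms lay between -1.47 and 0.15. The low worms of those ages lay between -1.47 and -0.08. Pooling more worms makes overlap likelier, so these ranges cannot be set against those of the 4 and 5 worms of day 16. In whole worms, fewer germ cells and less RNA per germ cell cannot be told apart, and the part of germline content in the day 16 shifts was not tested.

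Among the called oocyte genes, car-1 read -0.21 to 0.18 in the high worms and -1.87 to -1.14 in the low worms of day 16. puf-5, a Pumilio-family repressor of maternal mRNAs, shifted by 1.93 ± 0.52 (limma, adjusted p = 0.0392), and cgh-1, an RNA helicase of germline granules, by 1.72 ± 0.42 (adjusted p = 0.0247). cbd-1, a chitin-binding protein of the eggshell, shifted by 2.30 ± 0.55 and cey-3, a Y-box protein, by 2.09 ± 0.50 (adjusted p = 0.0216 and 0.0204, limma). Of the germline list, the synaptonemal complex gene syp-4 shifted by 1.91 ± 0.52 and the P granule gene deps-1 by 1.12 ± 0.29 (adjusted p = 0.0397 and 0.0330). The median of the germline list was 0.74 at day 16, with 32 of 36 positive, and -0.30 at the other ages, with 3 of 36 positive. Of all 18887 genes 9250 and 9402 were positive.

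Of 158 cuticle collagen genes 12 were called, all downward, against 1.31% of all genes called downward. At day 16 50 of the 158 were positive, at the other older ages 95, and the median difference was -0.29 at day 16 and 0.08 at the other older ages. col-178 read -6.35 to -4.67 in the high worms and -3.77 to -2.43 in the low worms of day 16, a shift of -2.50 ± 0.46 (limma, adjusted p = 0.00267). fat-7, a stearoyl-CoA desaturase gene, shifted by -2.68 ± 0.51 (adjusted p = 0.00364), with -5.83 to -4.99 in the high worms and -3.65 to -2.56 in the low worms. Of 37 histone genes 1 was called, the linker histone hil-7 (-2.91 ± 0.64), which is close to the 2.12% of all genes called in either direction. The median of the histone list was -0.65 at day 16 and 0.08 at the other ages. Over all 18887 genes the medians were -0.01 and -0.002, and 9250 and 9402 genes were positive.

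**Figure D5:**
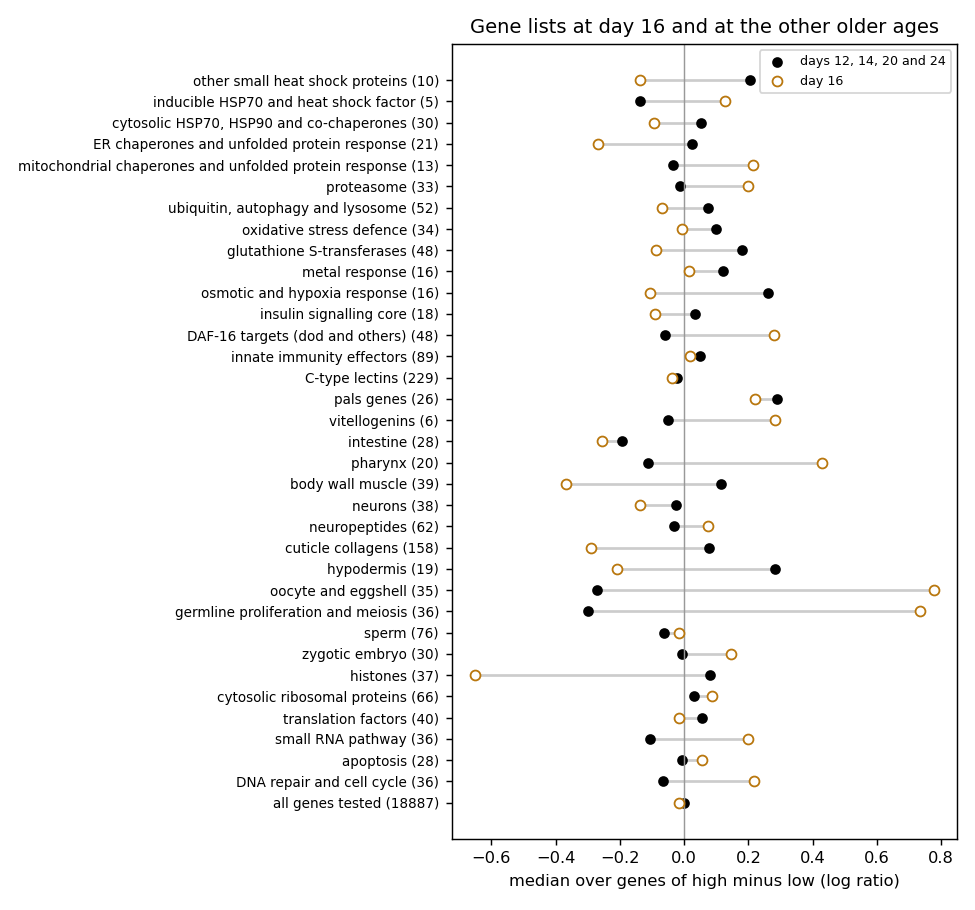
Median over the genes of each list of high minus low in log2 ratio, at day 16 (open circles, 4 and 5 worms) and at days 12, 14, 20 and 24 together (filled circles, 21 and 20 worms). Numbers in brackets are genes measured. The oocyte list stands at 0.78 and -0.27 and the histone list at -0.65 and 0.08, while all genes lie near 0.

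Over the 50 worms as a whole no member of a tissue list passed. Of 28 intestine markers 8 were positive, with a median of -0.21. The oocyte list had 10 of 35 positive with a median of -0.13, the germline list 10 of 36 with a median of -0.11, and body wall muscle 21 of 39 with a median of 0.01, where 49.4% of all genes were positive. None of 66 cytosolic ribosomal protein genes, and none of 6 vitellogenin genes, reached even an unadjusted p under 0.05. The pals genes, a family induced by intracellular infection, had 18 of 26 positive with a median of 0.28, and 4 were higher at an unadjusted p under 0.05. Of 48 glutathione S-transferase genes 6 were higher and none lower at that p, and none passed the adjusted test. Over all genes 4.66% were higher and 3.84% lower at an unadjusted p under 0.05.

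The 24 worms between the groups allowed the same genes to be followed with age in worms that the comparison did not use. Of the 881 genes higher in high worms at an unadjusted p under 0.05, 75.5% rose with age from day 12 to day 24 in these 24 worms. Of the 726 lower genes 30.9% rose, and of all genes 50.6%. With missing probes as a term in the choice of genes the shares were 72.8% of 788 and 29.6% of 743. Among the 12 named genes on the higher side 11 rose with age, and among the 12 on the lower side 3 did. Age in these worms is unevenly filled, with 1 worm of day 12, 7 of day 14, 8 of day 16, 4 of day 20 and 4 of day 24, so the shares are a description of those animals.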

How the data were processed

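The values are log2 ratios of 1 worm over the pool of day 4 worms, deposited by the authors as normalized two-colour array values; per the submitters' processing notes limma was used, and the labels record no further step of the normalization. Neither the base of the logarithm nor the direction of the ratio is stated. Base 2 and worm over pool are taken as likely, since limma forms log2 of Cy5 over Cy3 and the labels put Cy5 on the worm; if the ratio ran the other way, all signs and both group names would turn, and genes that move together would still do so. The array number limits the precision. Of 22490 probes 21383 (95.08%) were matched by sequence name to RefSeq's WBcel235 gene list, probes of a gene were averaged, and 18889 genes resulted, 10823 of them with a gene name. The 2 deposited tables of these values agreed within 0.

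Genes were tested with limma 3.58.1 in R 4.3.3 (lmFit, eBayes, age as a factor, Benjamini-Hochberg over 18887 genes, threshold 0.05), after checks on simulated data. Single worms are replicates. Named genes are the 12 of largest change past the threshold in each direction, filled by lowest p, plus heat shock genes and those of lowest p in each list. Members, rule and all 39 lists were chosen with earlier results of these data known. The day 16 comparison, its alternatives and the fits with missing probes or title number alone were added after seeing the data. No sequence is shown.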

Additional observations from a re-analysis of the deposited data

Results flagged for a closer look

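2 single worms of day 12 stood far from their group in hsp-17. 1 of the 8 high worms read 2.44 and 1 of the 8 low worms 2.84, while the others in both groups lay at or below 0.05. 45 small groups were examined in this way, and chance flags about 1 in 20.

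For 12 named genes the difference between high and low worms at day 16 differed from that at the other older ages by limma's test of the difference, a comparison chosen after seeing the data. The shifts were 3.09 for klo-1, 3.06 for lact-1, 2.17 for car-1, 2.82 for dod-6, 2.46 for cyp-37A1, 1.27 for lem-3, -2.89 for famh-161, -5.19 for numr-1, -3.44 for ben-1, -3.18 for ift-43, -3.62 for dbd-11 and -4.65 for tag-273.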

How the results depend on the processing

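No paired analysis was possible because the labels give the worms no shared replicate numbers. The count of genes past the threshold depended on the setting, and the cause was not tested. Against 1 gene higher and 0 lower, the continuous score gave 70 and 10, the 15 highest against the 15 lowest 21 and 1 (fbxb-116), and hsp-16.41 alone 324 and 84, of which 69 genes were among the 80 of the continuous score. hsp-16.2 alone gave 2 (hsp-70 and Y71H2AM.21) and 1 (col-179), leaving out day 16 150 and 54, and missing probes as a term 0 and 1 (fbxb-6). Higher genes numbered 0 with the 37 highest against 37 lowest, with the highest and lowest parts taken within each age, without day 12 and with quantile normalization. They numbered 2 without day 20, without day 24 and with genes complete on all 50 arrays (hsp-70 and R09A1.3 each time), and 6 with array weights. With missing probes, spread and title number as terms together, 1 gene was lower (fbxb-6) and 1 higher, which was fbxa-19 and not hsp-70. In days 4 and 8, against 19 genes, day 4 alone gave 0, day 8 alone 7 and quantile normalization 0. For day 16 against the other older ages, against 400 genes, the continuous score gave 14, and leaving out 1 worm gave 66 to 633 (153, 633 and 66 without 1 of 3 high worms, and 200 or fewer without 1 of 3 low worms).

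hsp-70 lost its call with 37 against 37 worms (adjusted p = 0.0530), groups taken within each age (0.207), quantile normalization (0.114), the 3 array measures as terms (0.190), missing probes as a term (0.205) and without day 12 (0.350), all by limma. Near 0, signs turned: hsf-1 was 0.084 with hsp-16.2 alone, 0.018 without day 12 and 0.032 without day 20. hsb-1 was -0.018 with 15 against 15 and -0.036 with hsp-16.41 alone. ddl-2 was 0.11 with the 3 array measures and 0.053 with missing probes as a term, and crt-1 was 0.061 with hsp-16.41 alone. vit-6 was 0.0059 and vit-2 0.10 without day 14. The day 16 difference of hsp-70 was -0.45 with missing probes as a term and -0.23 with quantile normalization.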
